A study of Homo sapiens with 6 samples.

Results

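The genes described here encode the factors that place RNA polymerase III on its promoters: the 5 subunits of the snRNA-activating protein complex, SNAPc (SNAPC1, SNAPC2, SNAPC3, SNAPC4 and SNAPC5), the components of the initiation factor TFIIIB (BRF1, BRF2, BDP1 and TBP), and the polymerase III repressor MAF1. They are 10 of the 58523 annotated genes in the data, and all 10 passed the filter on low counts. The genes were chosen by name from a table in which the treated and control groups had already been compared. Their own differences between the groups are therefore given as a description. Where a member is said to pass or not, this states its place in the fit over all genes and is not used as support.

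RNA was sequenced from 6 separately grown cultures of the human melanoma line A375, which is long established and came from ATCC. The control group was 3 untreated cultures (replicates 1, 2 and 3), and the treated group was 3 cultures given hMGL for 24 h (replicates 4, 5 and 6). hMGL is an engineered human enzyme that degrades the amino acid methionine. All cultures were kept in the same serum-containing medium, and no dose of hMGL is stated. The comparison asks how transcript levels differ between cells treated with the enzyme and untreated cells of this 1 line.

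SNAPc binds the proximal sequence element, a DNA element upstream of small nuclear RNA (snRNA) genes. It is unusual in serving both RNA polymerase II, at the genes of U1, U2, U4 and U5 snRNA, and RNA polymerase III, at the genes of U6 snRNA, 7SK RNA and the RNA of RNase P. TFIIIB then recruits polymerase III: its BRF2 form works at these upstream promoters, its BRF1 form at tRNA and other genes whose promoters lie inside the transcribed part, and both forms contain TBP and BDP1. MAF1 binds the polymerase and blocks its recruitment when nutrients or growth signals are short.

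Libraries held 50760266 to 59954677 estimated counts. Levels are given as CPM, the count of a gene per 1e6 counts of its library after scaling with edgeR's TMM factors, with the SD over 3 cultures, and a log2 fold change is treated over control with its SE. This scaling centres the bulk of genes on 0, which makes each value relative to the rest of the library, and in such bulk RNA fewer cells and less RNA per cell cannot be told apart. Over all 22580 genes tested with edgeR, 69.4% passed an adjusted p of 0.05, 34.9% as higher and 34.5% as lower in treated cells, and the median log2 fold change was -0.015. For 73.3% of genes the 3 control and 3 treated values did not overlap. Of the melanoma markers, SOX10 (417 ± 31.3 CPM in control cells), MCAM (334 ± 4.63 CPM) and MITF (43.7 ± 1.86 CPM) were well expressed. Among the 9 listed, 8 were tested, of which 2 rose and 4 fell, beside 34.9% and 34.5% of all genes. The other 2 did not pass, and the log2 values ran from -2.72 to 1.88. S100A1 fell from 68.9 ± 5.07 to 37.3 ± 0.988 CPM (log2 -0.89, adjusted p = 1.91e-10, edgeR) and S100B from 38.6 ± 0.829 to 5.82 ± 1.12 CPM (log2 -2.72, adjusted p = 3.01e-06), while the pigment genes PMEL, MLANA, TYR and DCT stayed at or below 2.05 CPM in the mean of either group. Of 9 markers of other cell types, 5 had enough counts for the test, among them CD68 (31.1 ± 1.52 CPM in control cells) and KRT14 (16.6 ± 1.16 CPM). The markers of leukocytes, T cells and hepatocytes (PTPRC, CD3E and ALB) were each below 0.16 CPM in the mean of either group. Of the 5 tested, 3 rose and 1 fell, beside 34.9% and 34.5% of all genes, and 1 did not pass. Their log2 values ran from -0.87 to 2.65.

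A few sequences carry what follows. The DNA just upstream of the annotated starts of SNAPC1 and BDP1 is shown because these are the members whose promoter windows held a motif searched for. The windows are those of the RefSeq promoter table (GRCh38.p14), cut back so that they hold no base of a GENCODE 29 transcript, and are written 5′ to 3′ on the plus strand. Capitals mark the motif. The SNAPC1 window is chr14:61762170-61762356 and the BDP1 window is chr5:71455401-71455614.
SNAPC1: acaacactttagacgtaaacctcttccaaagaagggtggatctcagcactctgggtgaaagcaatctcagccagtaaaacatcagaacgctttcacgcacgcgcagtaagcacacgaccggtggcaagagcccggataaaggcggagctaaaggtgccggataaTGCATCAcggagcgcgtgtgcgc
BDP1: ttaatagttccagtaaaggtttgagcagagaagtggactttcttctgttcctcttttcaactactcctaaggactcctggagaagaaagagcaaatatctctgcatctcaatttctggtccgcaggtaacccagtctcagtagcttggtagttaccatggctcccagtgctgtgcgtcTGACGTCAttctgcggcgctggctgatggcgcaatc
The capitals in the SNAPC1 window are TGCATCA, the reverse complement of TGATGCA, a core of the composite element bound by C/EBP and ATF factors, and they begin 23 bases before the GENCODE start of the gene. The capitals in the BDP1 window are TGACGTCA, the cAMP response element, and begin 36 bases before its start. Both strands were searched for these motifs, the E-box CACGTG and the TATA box TATAAA, none of which contains another. The motifs were chosen after results of these data were known. Of 35116 promoter windows of 300 bases in the table, 2.63% held TGATGCA, 1.85% TGACGTCA, 7.26% CACGTG and 11.5% TATAAA. The windows of SNAPC2, SNAPC3, SNAPC5, BRF1 and TBP held none of these letters. Those of SNAPC4, BRF2 and MAF1 were not analysed here.

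SNAPC1 (ENSG00000023608, chr14:61762357-61796428, plus strand) encodes SNAP43, a subunit that binds SNAPC3 and SNAPC4 and contacts TBP. Its level was 75.2, 74.3 and 75.1 CPM in the control cultures and 582, 594 and 613 CPM in the treated cultures. The groups were far apart, and the spread within each was small beside the gap between them. The mean went from 74.9 ± 0.491 to 596 ± 15.3 CPM, 7.97-fold higher in treated cells (log2 fold change 2.99 ± 0.030 SE). Of the 22580 genes tested, 351 had a larger log2 fold change. The value was between 2.99 and 3.09 in all 14 alternative analyses.

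Among the transcripts matched by identifier to the gene annotation, 1 belonged to SNAPC1, the protein-coding SNAPC1-201 (ENST00000216294, 2593 bases, 10 exons). The difference could therefore not be divided among matched isoforms. Whether any of the unmatched transcripts, which were left out, came from SNAPC1 was not tested. SNAPC1-201 had 4142, 3776 and 3971 estimated counts in control cultures and 30985, 29860 and 29962 in treated cultures. A second gene model, AL137129.1, runs over the same locus on the same strand (chr14:61734138-61776260) and is annotated as a processed transcript without a coding sequence. The first of its 5 exons has the ends of an exon of HIF1A, the neighbouring gene, which encodes the hypoxia factor HIF-1 alpha. Its other 4 exons overlap exons of SNAPC1, 3 of them with the same ends, and it shares 565 bases, or 21.3%, of the exon sequence of SNAPC1. AL137129.1 had 10, 0 and 0 estimated counts in control cultures and 240, 275 and 286 in treated cultures. Its level in treated cells, 5.28 ± 0.690 CPM, was at most 0.955% of that of SNAPC1 in any treated culture, so adding both together gave an 8.03-fold difference, close to that of SNAPC1 alone.

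**Figure D1:**
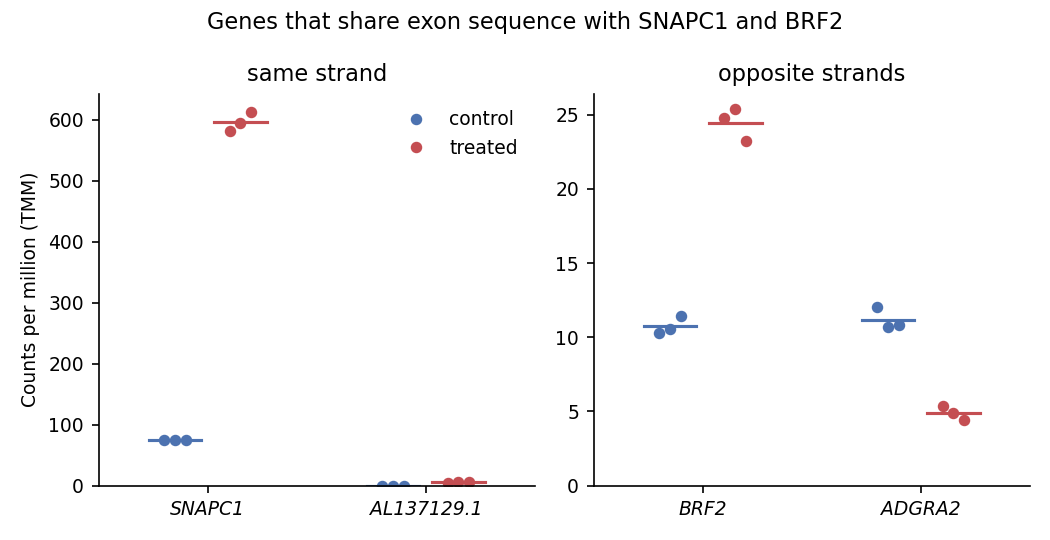
Level in each library (points, CPM, linear axes from 0) and group mean (line) of SNAPC1 beside AL137129.1, which shares exon sequence on the same strand, and of BRF2 beside ADGRA2, which shares exon sequence on the opposite strand, in 3 control and 3 treated cultures. AL137129.1 stays near the axis at 5.28 CPM in treated cells beside 596 CPM for SNAPC1, while BRF2 and ADGRA2 start at similar levels and move in opposite directions.

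The other subunits of SNAPc differed far less between the groups than SNAPC1. SNAPC5 (SNAP19, the smallest subunit, chr15:66490135-66497813, minus strand) was at 27.2, 25.2 and 27.0 CPM in control and 45.5, 45.4 and 44.6 CPM in treated cultures. The groups did not overlap, and the treated mean was 1.70-fold higher (log2 0.77 ± 0.039). SNAPC2 (SNAP45, chr19:7920316-7923250, plus strand), a subunit not needed for basal transcription in vitro, was at 26.0, 24.0 and 24.2 CPM in control and 31.7, 31.0 and 33.1 CPM in treated cultures. It was 1.29-fold higher without overlap (log2 0.37 ± 0.044).

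SNAPC4 (SNAP190, chr9:136375577-136400168, minus strand) is the scaffold of the complex, and its Myb repeats bind DNA. Its level was 13.6, 28.3 and 25.04 CPM in control and 33.6, 46.7 and 30.3 CPM in treated cultures. Control replicate 1 stood lowest and treated replicate 5 highest, and although the groups did not overlap, SNAPC4 did not pass the test over all genes (log2 0.73 ± 0.36). Without control replicate 1 the log2 difference was 0.47. Among the matched transcripts, SNAPC4 is split between 2 coding ones. SNAPC4-201 had 670, 755 and 808 estimated counts in control and 938, 906 and 749 in treated cultures, a narrow spread. The spread came with SNAPC4-202, which had 79.2, 683 and 516 counts in control and 849, 1443 and 734 in treated cultures. Its share of the gene's counts was 32.4% ± 19.3 in control and 52.8% ± 7.54 in treated cells.

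SNAPC3 (SNAP50, chr9:15422704-15465953, plus strand), which contacts DNA together with SNAPC4, was the subunit that was lower in treated cells. It was at 45.6, 43.6 and 45.2 CPM in control and 33.9, 37.1 and 35.6 CPM in treated cultures, without overlap (log2 -0.33 ± 0.040). Most of its counts fell on transcripts annotated for nonsense-mediated decay (NMD), the removal of mRNAs with an early stop codon. SNAPC3-206, an NMD transcript, held 66.9% ± 1.34 of the counts in control and 70.3% ± 1.82 in treated cells. The main coding transcript, SNAPC3-202, had 536, 462 and 473 counts in control and 317, 290 and 271 in treated cultures. Coding transcripts together held 21.5% ± 0.944 and 17.1% ± 0.705 of the gene's counts. With these transcripts alone the log2 difference was -0.63, and on the scale of log2(TPM + 1), where TPM is abundance corrected for transcript length, it was -0.20 and did not pass limma's test.

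In TFIIIB, the 2 alternative BRF subunits differed in opposite directions. BRF1 (chr14:105209286-105315589, minus strand), the subunit used at tRNA genes, was at 36.0, 34.5 and 36.3 CPM in control and 25.8, 26.0 and 25.4 CPM in treated cultures. The groups were well separated (log2 -0.47 ± 0.039). BRF2 (chr8:37843268-37849904, minus strand), the subunit used at U6-type promoters, was at 10.3, 10.6 and 11.4 CPM in control and 24.8, 25.4 and 23.2 CPM in treated cultures. It was 2.28-fold higher (log2 1.19 ± 0.059), with no overlap, and 1.00 to 1.26 on the log2 scale over the 14 alternatives. Among the transcripts of BRF1, the coding BRF1-204 held a share of the counts that was 24.7% ± 1.79 in control and 13.0% ± 4.04 in treated cells. It had 470, 469 and 455 counts in control and 177, 224 and 112 in treated cultures, whereas BRF1-201, also coding, had 628, 378 and 584 against 458, 461 and 406. The main transcript of BRF2, BRF2-201, held 82.5% ± 4.01 and 84.8% ± 1.86 of its counts.

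BRF2 has a limit of its own. The gene ADGRA2, which encodes an adhesion G protein-coupled receptor, covers 59.0% of the exon bases of BRF2 on the opposite strand, and the sources used here do not say whether the libraries kept the strand. ADGRA2 was at 12.1, 10.7 and 10.8 CPM in control and 5.37, 4.87 and 4.46 CPM in treated cultures (log2 -1.19 ± 0.089). The sum of BRF2 and ADGRA2 was 21.9 ± 0.583 CPM in control and 29.4 ± 1.45 CPM in treated cells, a 1.34-fold difference against 2.28-fold for BRF2 alone. Whether reads were shared between the 2 genes was not tested.

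BDP1 (chr5:71455615-71567820, plus strand) is the SANT-domain subunit of both forms of TFIIIB and had the highest CPM of the set in control cells. It was at 159, 155 and 162 CPM in control and 182, 188 and 189 CPM in treated cultures, without overlap (log2 0.23 ± 0.030). The coding transcript BDP1-201 had 5612, 5402 and 5665 counts in control and 5664, 5717 and 5305 in treated cultures. In an edgeR fit over all transcripts its log2 fold change was 0.089. BDP1-204, annotated as a retained intron, had 2837, 2101 and 2563 counts in control and 3515, 3324 and 3376 in treated cultures (log2 0.54 in the same fit). Coding transcripts held 66.3% ± 2.37 of the gene's counts in control and 58.8% ± 1.52 in treated cells, so the gene-level difference lay mostly in the transcript that is not annotated as coding.

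TBP (chr6:170554302-170572870, plus strand), the TATA-binding protein shared by the machineries of all 3 nuclear polymerases, was at 25.5, 23.9 and 24.6 CPM in control and 30.7, 31.5 and 33.3 CPM in treated cultures. It was 1.29-fold higher without overlap (log2 0.37 ± 0.044), a value like that of SNAPC2. MAF1 (chr8:144104499-144107611, plus strand) was at 119, 116 and 115 CPM in control and 115, 117 and 116 CPM in treated cultures. It was the only member whose groups overlapped (log2 -0.0074 ± 0.030), and its log2 value was between -0.017 and 0.15 over the alternatives. These are transcript levels, and the phosphorylation that controls the MAF1 protein is not measured by them.

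**Figure D2:**
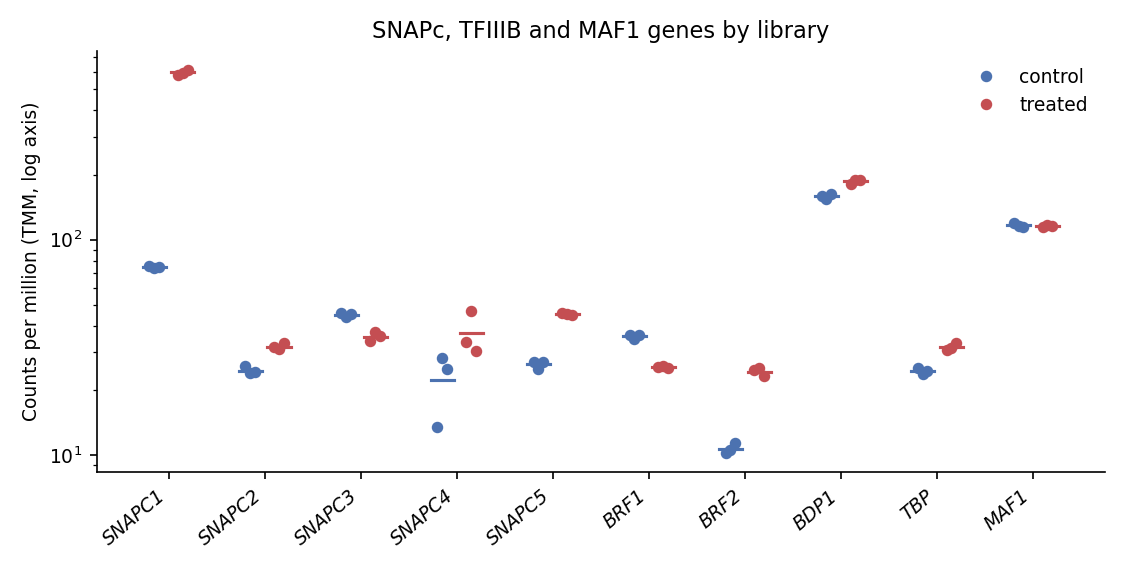
Level of each of the 10 genes in each library (points, CPM on a log axis) with the group mean (line) in 3 control and 3 treated cultures. The treated values of SNAPC1, 582 to 613 CPM, lie far above its control values near 75 CPM, SNAPC4 has the widest spread within its groups, and the MAF1 groups overlap.

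**Figure D3:**
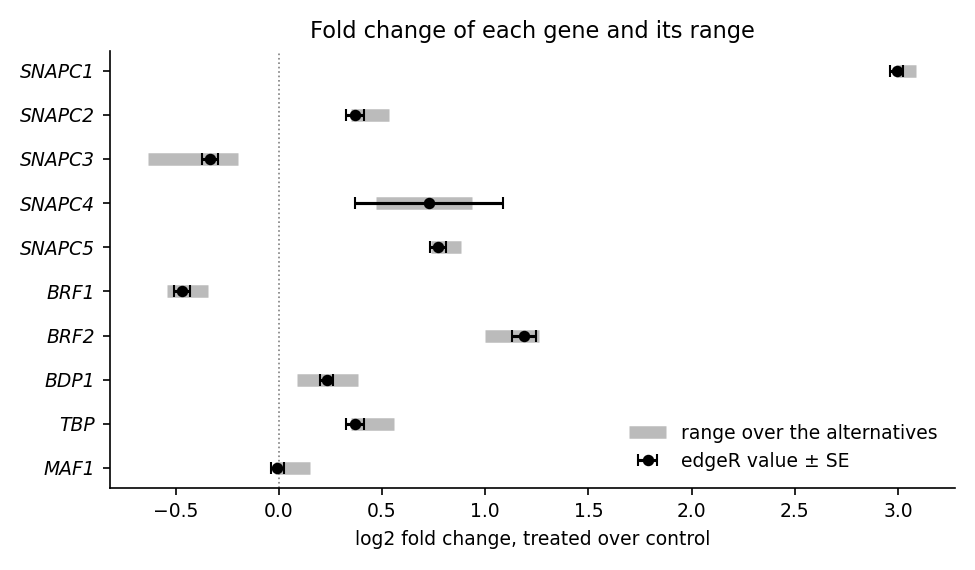
log2 fold change, treated over control, of each gene (points with SE from edgeR) and its range over 14 alternative analyses (grey bars). SNAPC1 stands at 2.99 and BRF2 at 1.19, SNAPC3 and BRF1 are below 0, and the bar of MAF1 spans 0.

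Counted over the 10 genes, 6 passed the test over all genes as higher (SNAPC1, SNAPC2, SNAPC5, BRF2, BDP1 and TBP), beside 34.9% of all genes. SNAPC3 and BRF1 passed as lower, beside 34.5%, and SNAPC4 and MAF1 did not pass. In all, 8 of 10 passed beside 69.4% of all genes, and 9 of 10 did not overlap between groups beside 73.3%. The median log2 fold change was 0.37 against -0.015 over all genes. Nothing is read from these counts, since the genes were chosen from the same comparison.

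**Figure D4:**
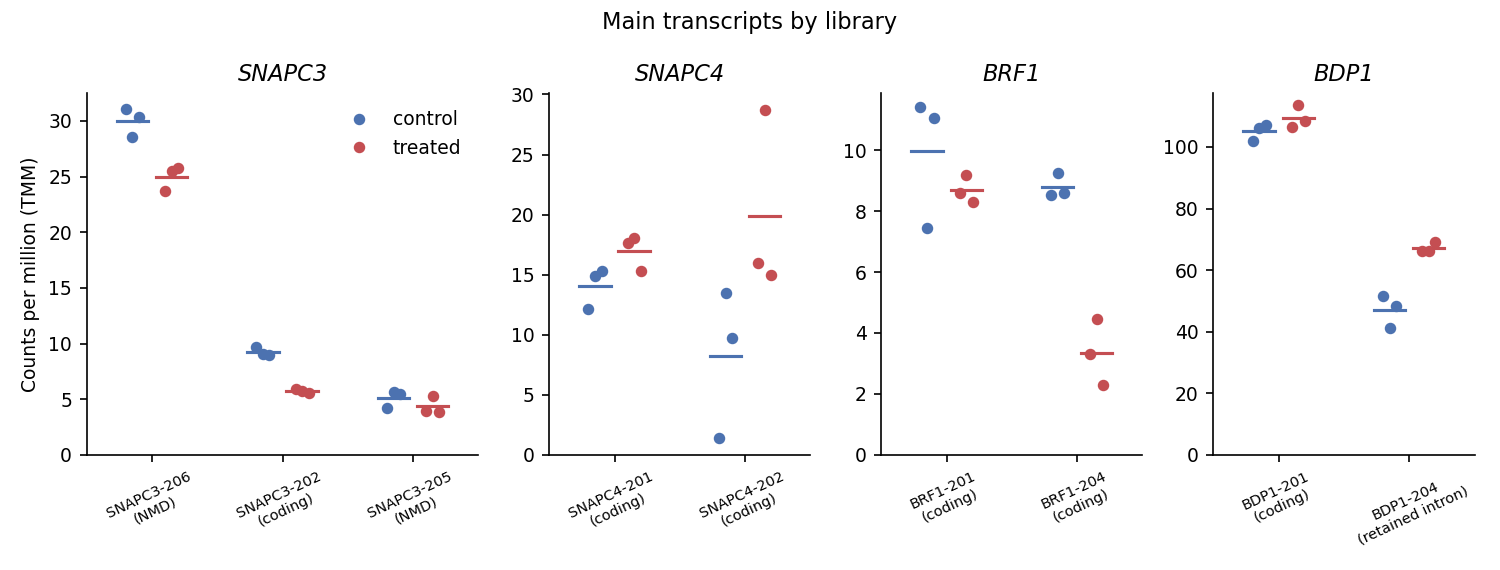
Level of the main transcripts of SNAPC3, SNAPC4, BRF1 and BDP1 in each library (points, CPM, linear axes from 0) with the group mean (line) in 3 control and 3 treated cultures; the annotated type of each transcript is in brackets, NMD meaning nonsense-mediated decay. SNAPC4-202 varies from 1.44 to 13.4 CPM among control cultures, and BDP1-204 differs between groups while BDP1-201 overlaps.

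Per length, on the TPM scale, the order of the 10 genes changed with treatment. In control cells SNAPC1 (36.6 ± 2.33 TPM) and MAF1 (36.1 ± 2.98 TPM) were highest with overlapping values, followed by SNAPC5 at 26.1 ± 1.52 TPM. SNAPC3 (17.6 ± 1.07 TPM) and BDP1 (16.5 ± 0.857 TPM) overlapped, then came TBP at 13.2 ± 0.993 TPM. BRF1 (10.2 ± 0.992 TPM) and SNAPC2 (9.62 ± 1.08 TPM) overlapped, and BRF2 (3.28 ± 0.289 TPM) and SNAPC4 (1.88 ± 0.681 TPM) were lowest. In treated cells SNAPC1 was at 312 ± 13.7 TPM, well above SNAPC5 at 48.3 ± 4.36 TPM and MAF1 at 40.1 ± 2.85 TPM. BDP1 (21.5 ± 0.937 TPM), TBP (19.5 ± 1.09 TPM), SNAPC3 (15.2 ± 0.830 TPM) and SNAPC2 (13.9 ± 0.166 TPM) followed with no overlap between neighbours. BRF2 (7.57 ± 0.757 TPM) and BRF1 (7.54 ± 0.358 TPM) overlapped, so the gap seen in control cells was gone in these sums over all transcripts. BRF1-214, a transcript of 521 bases not annotated as coding, held 41.0% of the TPM of BRF1 in control and 35.2% in treated cells. The 2 genes were not compared on coding TPM alone. SNAPC4 was again lowest at 3.35 ± 0.768 TPM. Summed over all transcripts, coding or not, the genes of the 5 SNAPc subunits thus spanned 1.88 to 36.6 TPM in control cells and 3.35 to 312 TPM in treated cells. SNAPC5-204, annotated for NMD, held 48.8% of the TPM of SNAPC5 in control and 52.2% in treated cells.

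The genes whose profile over the 6 libraries lay nearest to that of SNAPC1 were found by Euclidean distance between log2 CPM values, each gene centred on its own control mean, among 9812 other genes. They were NR1D1, a nuclear receptor of the circadian clock (distance 0.112), TRIB3, a pseudokinase (0.113), RASEF, a Rab-family GTPase (0.143), FRAS1, a protein of the extracellular matrix (0.153), and SERTAD1, a transcriptional co-regulator (0.154). TRIB3 went from 56.0 ± 1.65 to 456 ± 5.67 CPM, somewhat below the levels of SNAPC1, and the other genes were at 2.96 to 8.48 CPM in the control mean. Such a ranking describes likeness in these libraries only.

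The remaining genes of the pathway were taken from lists written from general knowledge, with earlier results of these data already known. They were tested in the same edgeR fit over all genes, and some of those named were added after their values were seen. Of 11 subunits found only in polymerase III, 7 rose, 3 fell and 1 did not pass, with a median log2 fold change of 0.45, beside 34.9% higher and 34.5% lower among all genes. POLR3D, a subunit of the TFIIF-like part of the enzyme, was at 63.8, 60.5 and 62.6 CPM in control and 179, 178 and 181 CPM in treated cultures. It rose by 1.53 ± 0.032 on the log2 scale (adjusted p = 3.66e-17, edgeR, higher in 3 of 3 cultures). CRCP, which encodes the subunit RPC9 of the stalk, rose from 49.7 ± 1.40 to 133 ± 6.42 CPM (log2 1.42, adjusted p = 1.19e-15). POLR3A, the largest catalytic subunit, rose from 64.2 ± 2.34 to 104 ± 1.79 CPM (log2 0.70, adjusted p = 4.76e-12). POLR3G, one of the alternative forms of the RPC7 subunit and the form linked to undifferentiated and tumour cells, fell from 64.0 ± 2.40 to 43.6 ± 1.06 CPM (log2 -0.55, adjusted p = 5.84e-10). Its paralog POLR3GL, at 14.6 ± 0.984 and 14.5 ± 0.562 CPM, did not pass (adjusted p = 0.872). POLR3K (log2 -0.26) and POLR3B (log2 -0.20), the second catalytic subunit, also fell, but neither passed with limma on the TPM scales, at adjusted p of up to 0.191 and 0.253.

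Of 7 subunits that polymerase III shares with other polymerases, 3 rose and 4 fell (median log2 -0.21), beside 34.9% and 34.5% of all genes. POLR1D, shared with polymerase I, rose from 56.4 ± 1.55 to 100.02 ± 1.56 CPM (log2 0.83, adjusted p = 3.04e-13). POLR2K (log2 0.17) and POLR1C (log2 0.11) rose by little, and POLR1C did not pass without control replicate 2 or with DESeq2 (adjusted p up to 0.107). POLR2F fell from 134 ± 4.03 to 64.0 ± 0.650 CPM (log2 -1.06, adjusted p = 6.78e-15) and POLR2L from 115 ± 6.81 to 64.5 ± 2.12 CPM (log2 -0.83). Both are small subunits common to all nuclear polymerases. POLR2E (log2 -0.24) fell too, but not past the threshold on the TPM scale (adjusted p up to 0.470).

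TFIIIC recognises the internal promoters of tRNA genes, and TFIIIA that of the 5S rRNA genes. In this group of 7, GTF3C3 did not pass, 3 genes rose and 3 fell (median log2 -0.13), shares near the 34.9% and 34.5% of all genes. GTF3C1, the largest TFIIIC subunit, which binds the B box, fell from 273 ± 3.32 to 161 ± 0.472 CPM (log2 -0.77, adjusted p = 4.27e-14), and GTF3C5 fell by 0.30 on the log2 scale. GTF3C4 rose from 91.5 ± 1.13 to 122 ± 1.57 CPM (log2 0.42, adjusted p = 9.50e-10). The rise of GTF3A, the gene of TFIIIA (log2 0.19), became -0.077 with protein-coding transcripts alone. GTF3C2 (log2 0.11) did not pass in 3 alternatives (adjusted p up to 0.115) and GTF3C6 (log2 -0.14) in 5, treated replicate 6 left out among them (adjusted p up to 0.781).

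TBP works with other partners outside TFIIIB, and these were listed together with the TBP-like gene TBPL1. Of the 22 genes, 13 rose and 6 fell (median log2 0.32), beside 34.9% and 34.5% of all genes. The other 3, TBPL1 among them, were short of the threshold. With limma on the TPM scales 13 of the 22 rose and 2 fell. Of all genes called, 57.8% were higher on those scales, against 50.3% with edgeR. TAF5 (log2 -0.13) did not pass in 11 of 14 alternatives and TAF8 (log2 -0.18) in 12. TAF9, a histone-fold subunit of TFIID, rose from 64.1 ± 0.784 to 244 ± 7.85 CPM (log2 1.93, adjusted p = 3.37e-18). DR1, a part of the NC2 repressor that binds TBP on DNA, rose from 98.4 ± 3.97 to 206 ± 3.49 CPM (log2 1.07), and TAF13 from 41.6 ± 0.640 to 86.7 ± 2.16 CPM (log2 1.06). TAF12 fell from 21.2 ± 2.32 to 13.8 ± 0.330 CPM (log2 -0.62). TAF4 (log2 -0.40) and TAF1D (log2 -0.11) fell as well, but neither passed on the TPM scales, nor TAF1D with library totals (adjusted p up to 0.221 and 0.795). Of the activators of snRNA promoters, ZNF143 rose from 25.1 ± 1.27 to 39.0 ± 0.495 CPM (log2 0.64, adjusted p = 2.01e-10) and its relative ZNF76 fell from 15.6 ± 0.471 to 9.18 ± 0.351 CPM (log2 -0.77, adjusted p = 5.24e-09). POU2F1, which encodes the factor OCT-1 that recruits SNAPc through SNAPC4, was at 98.3 ± 1.63 and 101 ± 1.81 CPM and did not pass (adjusted p = 0.223), though it did in 4 of 14 alternatives.

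Integrator cleaves the 3′ ends of snRNAs made by polymerase II. Of 14 of its genes, 4 rose and 8 fell, and INTS1 and INTS13 did not pass (median log2 -0.19), beside 34.9% higher and 34.5% lower among all genes. Of all genes called, 50.3% were higher with edgeR and 57.8% with limma on the TPM scales. With limma on those scales 5 Integrator genes rose and 4 fell. Their median was 0.014 on log2(TPM + 1), beside 0.032 over all genes. INTS4, INTS5, INTS10 and INTS11 did not pass there (adjusted p up to 0.466, 0.119, 0.695 and 0.846), and the log2 value of INTS10 went from -0.20 to as much as 0.051. INTS1 passed in 5 of 14 alternatives. INTS8 fell from 74.8 ± 1.53 to 43.5 ± 1.3 CPM (log2 -0.78, adjusted p = 1.86e-12), INTS7 by 0.45 and INTS3 by 0.43 on the log2 scale. INTS12 rose from 14.004 ± 0.376 to 22.5 ± 1.13 CPM (log2 0.68), INTS14 by 0.46 and INTS6 by 0.37.

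Genes that set polymerase III output changed in either direction. MYC, which binds TFIIIB and activates polymerase III, rose from 16.5 ± 2.21 to 101 ± 7.92 CPM (log2 2.62 ± 0.12, adjusted p = 2.56e-05). RB1, whose product binds TFIIIB and represses it, fell from 91.2 ± 1.503 to 27.6 ± 0.759 CPM (log2 -1.73, adjusted p = 5.30e-17). SSB, which encodes the La protein that binds the 3′ ends of new polymerase III transcripts, fell by 0.53 on the log2 scale. RPS6KB1, which encodes the kinase S6K1, rose from 71.97 ± 2.13 to 92.6 ± 1.52 CPM (log2 0.36, adjusted p = 2.92e-08). CSNK2A1 and CSNK2A2, the catalytic subunits of casein kinase 2, did not pass (adjusted p = 0.805 and 0.0819), though the first did in 1 and the second in 2 of 14 alternatives.

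The products of SNAPc promoters are short RNAs, which RNA libraries of this kind recover unevenly, and the labels do not say how the libraries were selected. Of 13 entries for polymerase III RNAs with SNAPc promoters, 9 fell and 4 did not pass (median log2 -0.71), beside 34.5% lower among all genes. With DESeq2, 5 fell and 1 rose, and with limma on the TPM scales 6 fell and 2 rose. Of all genes called, 52.8% were higher with DESeq2 and 57.8% with limma on the TPM scales. Identical copies were among the 13 entries, and counted once, 6 of 10 distinct sequences fell with edgeR. RN7SK, the 7SK RNA that holds the elongation factor P-TEFb inactive, was at 24366, 24291 and 26083 CPM in control and 16680, 19684 and 19939 CPM in treated cultures. It was the most abundant of the list and was lower in all 3 treated cultures (log2 -0.41 ± 0.076, adjusted p = 0.00333, edgeR). RMRP, the RNA of RNase MRP, has 2 entries of nearly the same sequence. The larger fell from 6415 ± 530 to 5750 ± 127 CPM (log2 -0.16, adjusted p = 0.0320) and the other from 181 ± 51.8 to 95.9 ± 18.1 CPM (adjusted p = 0.0400). The larger did not pass in 8 of 13 alternatives (adjusted p up to 0.330) and the other in 10 of 13 (adjusted p up to 0.125), including each of the 6 that left out 1 library. RPPH1, the RNA of RNase P, was at 3698 ± 264 and 3610 ± 281 CPM and did not pass (adjusted p = 0.732).

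U6 snRNA is the best known polymerase III product of a SNAPc promoter, and its gene copies had very few counts. RNU6-1 had 78, 57 and 74 estimated counts in control and 41, 43 and 38 in treated cultures, and RNU6-2 and RNU6-9, which are identical to it, carried the same values (log2 -0.71, adjusted p = 0.00363), a call lost with DESeq2 (adjusted p = 0.0593). RNU6-7 had 29, 29 and 32 counts in control and 4, 5 and 11 in treated cultures, as did its identical copy RNU6-8 (log2 -2.09, adjusted p = 1.20e-04). Both sets fell without overlap, and how reads were divided among such near-identical copies was not tested. RNU6ATAC, the U6 of the minor spliceosome, fell from 0.788 ± 0.229 to 0.227 ± 0.144 CPM (log2 -1.78, adjusted p = 0.00224), but not past the threshold with limma on TPM (adjusted p up to 0.107). The Y RNAs RNY1, RNY3 and RNY4 did not pass, although RNY1 (log2 0.49, adjusted p = 0.0596) passed as higher in 8 of 13 alternatives and RNY4 (log2 0.79) in 2 of 12.

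Of 9 polymerase III RNAs with internal promoters, 4 had enough counts for the test. Of these 4, 1 rose, beside 34.9% higher among all genes, and 3 did not pass. BCYRN1, the BC200 RNA, was at 124, 116 and 121 CPM in control and 401, 415 and 455 CPM in treated cultures (log2 1.81 ± 0.048, adjusted p = 8.09e-11). Part of BC200 is an Alu sequence, shared with many other transcripts, so its count is uncertain. RN7SL1 and RN7SL2, near-identical RNAs of the signal recognition particle, were at 38925 ± 5997 and 27669 ± 4405 CPM in control and 42186 ± 6302 and 30585 ± 3304 CPM in treated cells and did not pass (adjusted p = 0.600 and 0.463), except as higher with limma on the TPM scales.

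Of 17 polymerase II snRNA genes with SNAPc promoters that could be tested, 10 fell, 1 rose and 6 did not pass (median log2 -0.72), beside 34.5% lower and 34.9% higher among all genes. The U1 copies RNU1-1, RNU1-2, RNU1-3, RNU1-4 and RNVU1-18 are identical and make up 5 of the 10, and over 13 distinct sequences 6 fell and 1 rose. RNU11 fell from 10.5 ± 1.25 to 6.38 ± 0.615 CPM (log2 -0.72, adjusted p = 5.43e-06) and RNU12 from 3.0001 ± 0.980 to 0.935 ± 0.216 CPM (log2 -1.68, adjusted p = 8.91e-04). Both belong to the minor spliceosome. RNU4-1 had 33.1, 20.4 and 36.2 CPM in control and 9.21, 14.5 and 10.2 CPM in treated cultures (log2 -1.41, adjusted p = 0.0173). RNU5A-1 rose from 0.682 ± 0.0879 to 1.08 ± 0.168 CPM (log2 0.66, adjusted p = 0.0128). RNU5D-1 did not pass in 11 of 13 alternatives, RNU5E-1 in 7 of 12 and the U1 copies in 6 of 13. These calls depended on single libraries: 2 of the 17 genes passed without control replicate 1 or without treated replicate 6, 3 without control replicate 3 or treated replicate 4, 4 without treated replicate 5, and 14 without control replicate 2. RNU4-1 did not pass without control replicate 1 or 3 or treated replicate 4 or 6 (adjusted p up to 0.0671). RNU5A-1 did not pass without control replicate 1 or treated replicate 6, or with DESeq2 (adjusted p up to 0.0987).

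**Figure D5:**
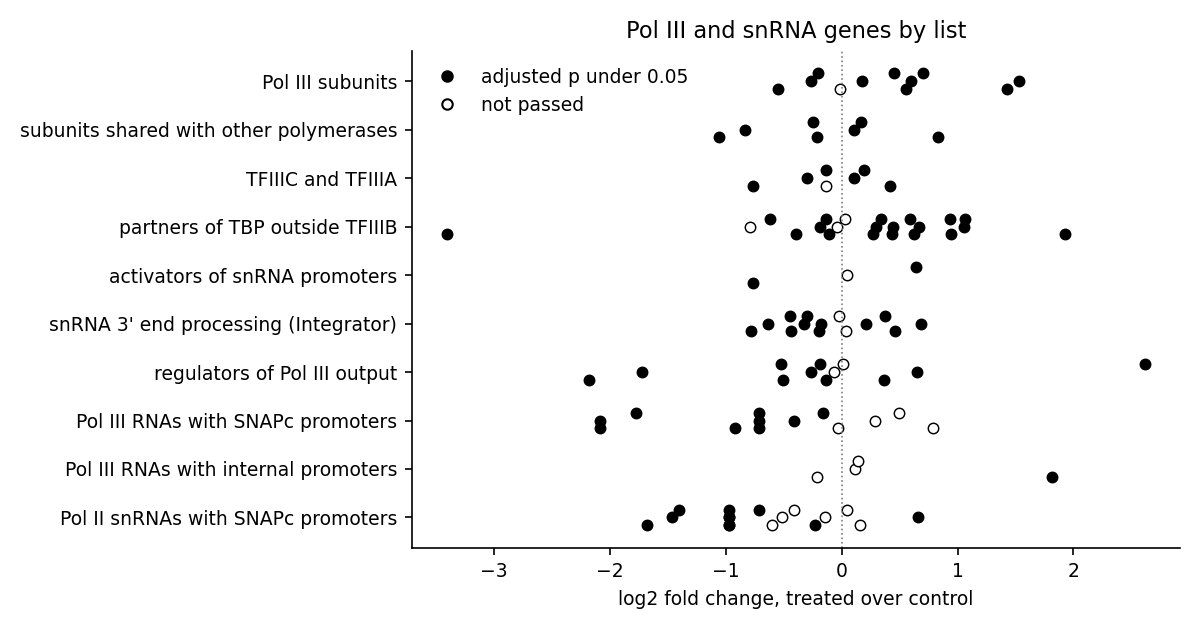
log2 fold change, treated over control, of every tested gene in 10 lists of polymerase III and snRNA genes (1 point a gene, filled where the adjusted p was under 0.05 in edgeR, vertical offsets only separate points). Both directions occur among the protein-coding lists, while the called polymerase III RNAs with SNAPc promoters all lie below 0, several of them identical copies at the same value.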

How the data were processed

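The deposited tables hold estimated counts per transcript (expected counts, as the authors' software gave them), TPM, and transcript lengths, per the file headers. The tools in the submitters' processing notes are kallisto (0.45.0) and DESeq2 (1.30.0), with no role stated; build, index release, strandedness and RNA selection are not given in the sources used here. Of 244939 transcripts, 203436 were matched by identifier to GENCODE 29 (GRCh38) and summed per gene; the other 41503, with 4.86% to 5.13% of a library's counts, were left out. Sums were rounded, filtered with filterByExpr (minimum count 10, total 15), scaled by TMM and compared with edgeR 4.0.16 (R 4.3.3; robust quasi-likelihood F test, two-sided, Benjamini-Hochberg over 22580 genes, threshold 0.05). The script was tested on simulated data. The common biological coefficient of variation was 0.0740. Estimated counts also carry an error of sharing reads between transcripts that the files do not give, and p-values measure the spread between cultures of 1 line.

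The members and lists were chosen with earlier results of these data known. Named genes were all 10 members, up to 3 higher and 3 lower called genes per list with the lowest adjusted p, and the 5 genes nearest to SNAPC1 with a mean of at least 10 CPM; POLR3GL, RPPH1, the RMRP entries, the RN7SL genes, POU2F1, RN7SK, the other U6 and U1 copies, HIF1A, overlapping genes and genes named as not passing were added after their values were seen. Alternatives were DESeq2 1.42.0, library totals, other filters, an effective length offset, limma 3.58.1 on log2(TPM + 1) and log2(TPM + 0.1), coding transcripts only, shares of TPM, and each library left out; counting identical copies once was chosen after seeing the data. Some items are not reported here.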

Additional observations from a re-analysis of the deposited data

How the results depend on the processing

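The count of genes passing the threshold over all genes stayed within 1.5 times of 15677 in all 14 alternatives (11169 to 17011). Of these calls, 57.8% were higher with limma on either TPM scale, against 50.3% with edgeR. SNAPC1 kept its direction in all 14, with a log2 fold change of 3.06 with limma on log2(TPM + 1), 3.09 on log2(TPM + 0.1), 3.07 when scaled by library totals, 3.02 with coding transcripts only, and 2.99 to 3.04 with 1 library left out, against 2.99. SNAPC2, SNAPC5, BRF1, BRF2 and TBP also passed in all 14, SNAPC3 in 12, SNAPC4 in 2 and MAF1 in 1. BDP1 passed in 13, and its log2 value was 0.089 with coding transcripts only. As the members were chosen from the same comparison, these counts describe them and lend no support. Of the polymerase III RNAs with SNAPc promoters, 4 in place of 9 passed under the stricter filter, which tested only 5 of them. Of these 4, 3 were lower and 1 was higher in treated cells. Of those with internal promoters, 3 in place of 1 passed with limma on either TPM scale, and the cause was not tested. Of the polymerase II snRNAs, 7 in place of 11 passed without a filter, 7 with identical copies counted once, and 2 to 14 with 1 library left out. The GTF3A difference reversed to -0.077 with coding transcripts only; the cause was not tested. No paired analysis was possible because the groups share no replicate number. With fewer than 100 counts per library, the U6 copies allow only coarse comparisons.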

Other observations

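Other members also share exon bases with other genes, whose levels are given here without an explanation. AC116913.1 shares 583 bases, or 23.2%, of the exon sequence of SNAPC5 on the same strand. It was at 2.48 ± 0.464 CPM in control and 2.19 ± 0.133 CPM in treated cells (adjusted p = 0.317, edgeR). Its level was at most 11.7% of that of SNAPC5 in any control culture, and adding both together gave a 1.63-fold difference. The genes that follow lie on the opposite strand. PSIP1, which encodes the chromatin protein LEDGF, shares 140 exon bases with SNAPC3 and fell from 452 ± 16.2 to 201 ± 5.30 CPM (log2 -1.17, adjusted p = 1.21e-15, edgeR). PACS2, a sorting protein gene that shares 417 exon bases with BRF1, fell from 15.7 ± 4.60 to 5.39 ± 1.71 CPM (log2 -1.55, adjusted p = 0.0189). BTBD6 shares 627 exon bases with BRF1 and was at 31.7 ± 0.910 and 33.6 ± 2.17 CPM (adjusted p = 0.1003). MAP2K1, the gene of the kinase MEK1, shares 216 exon bases with SNAPC5 and was at 29.6 ± 10.2 CPM in control and 33.8 ± 21.6 CPM in treated cells, a spread too wide to pass (adjusted p = 0.816). SHARPIN shares 40 exon bases with MAF1 and rose from 28.97 ± 1.73 to 32.3 ± 0.445 CPM (log2 0.16, adjusted p = 0.00485).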
